A study of Arabidopsis thaliana with 12 samples.

Results

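In roots of a line labelled as overexpressing the transcription factor UPB1, 96 of 22746 probe sets had higher signal than wild type in both zones cut from the root tip. The choice of these members also held the upb1 mutant to a band around wild type in the elongation zone. Members were chosen from the measured values. On the scale log2(signal + 16), the mean of the OX-labelled arrays had to exceed that of Col-0 by at least 1 in the meristematic and in the elongation zone, and upb1-1 had to lie within 0.8 of Col-0 in the elongation zone. Of the 107 probe sets with both rises, 11 lay outside that band, 8 with upb1-1 above and 3 with upb1-1 below Col-0. AT5G05250, which the choice of members also leaves out by name, is 1 of these 11.

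UPB1 (UPBEAT1) is a basic helix-loop-helix protein that acts where root cells stop dividing and begin to elongate. It is known for repressing peroxidase genes there, and so for setting the balance of reactive oxygen species across that boundary. The meristematic zone holds the dividing cells of the root tip, and the elongation zone above it holds cells that expand without dividing.

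The study profiled Arabidopsis thaliana of the Columbia-0 ecotype on Affymetrix ATH1 arrays, with 12 arrays in 6 groups of 2 biological replicates. The 3 genotypes were Col-0 as wild type, upb1-1, and 35S::UPB1-3YFP #2 in the upb1-1 background, each sampled as meristematic and as elongation pieces of roots of 6-day-old seedlings on standard medium. The last line is called OX here. It is 1 transgenic line, its fusion of UPB1 to YFP is driven by the viral 35S promoter, and its own UPB1 gene carries the upb1-1 mutation. A replicate pooled about 60 roots cut with a razor blade, and a 2-cycle protocol amplified its RNA, so each value is an average over many cells. In such pieces, fewer cells of a type and less RNA per cell cannot be told apart.

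UPB1 itself gave signals of 28.1 and 55.2 on the OX meristematic and 53.6 and 35.3 on the OX elongation arrays. Col-0 signals were 667 and 528 in meristematic pieces, 1379 and 1233 in elongation pieces, and upb1-1 gave 8.53 to 16.8 over both zones. The OX signal goes against the label of an overexpressing line. Because the sources used here do not state whether the transgene transcript holds the sequence that these probes match, each direction below belongs to the arrays labelled OX. The 3' to 5' signal ratio of 3 control transcripts, a sign of RNA length, had a mean log2 value of 4.17 on the OX meristematic arrays against 2.22 for Col-0 and 2.04 for upb1-1. In the elongation zone it was 3.97, 3.93 and 4.04 in the same order. Of 9 lists of cell type markers, 5 had no tested gene, so the labelled tissue was checked by few genes. The stem cell niche marker BBM was higher in OX than in Col-0 meristematic pieces by 1.12 (adjusted p = 0.0029 in limma) and gave -0.50 in elongation pieces without a call. The photosynthetic marker LHCB4.1 fell by 0.69 and by 1.73 (adjusted p = 0.046 and 0.0013 in limma). Both markers were dim. BBM gave 102 to 116 on OX against 35.4 to 47.9 on Col-0 meristematic arrays, and 1.47 to 3.61 against 6.92 to 14.0 in the elongation zone. LHCB4.1 gave 33.8 to 34.8 on OX against 54.8 to 77.3 on Col-0 meristematic arrays, and 1.88 to 12.3 against 57.3 to 60.4 in the elongation zone. The 2 tested root hair markers, EXPA7 and EXPA18, had a summed signal of 15.4 to 30.6 on OX against 789 to 899 on Col-0 meristematic arrays, and 39.3 to 43.1 against 206 to 383 in the elongation zone. The 2 tested markers of dividing cells, AUR1 and AUR2, summed to 1142 to 1198 on OX against 657 to 693 on Col-0 meristematic arrays, and to 223 to 242 against 236 to 355 in the elongation zone. The part of the ratio and of these cells in the members' values was not tested.

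**Figure D1:**
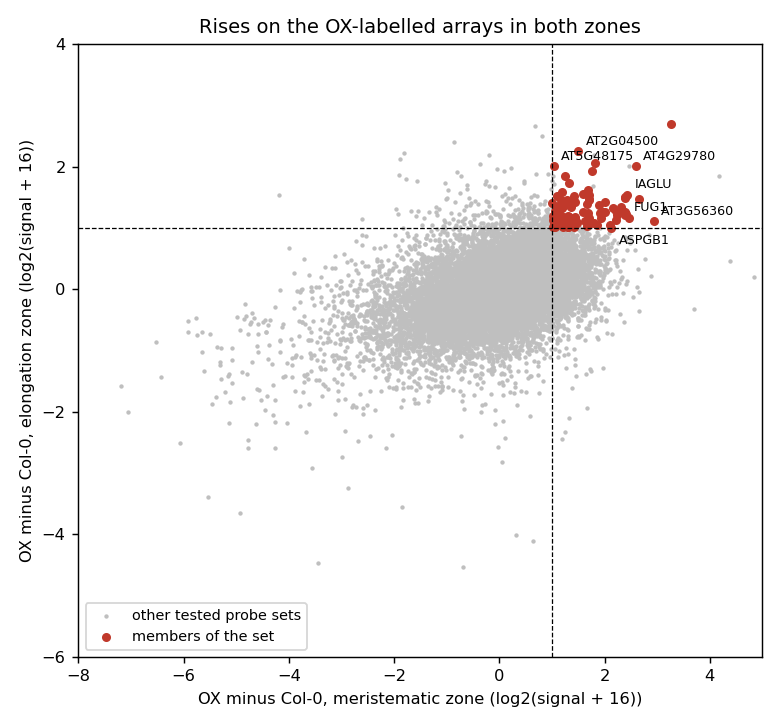
Difference between the OX-labelled and the Col-0 arrays in the elongation zone (vertical axis) against the meristematic zone (horizontal axis), each on the log2(signal + 16) scale, for the tested probe sets in grey and the 96 members in red. Dashed lines mark the threshold of 1 on each axis, which bounds the members by construction, and 66 of the 96 had the larger rise in the meristematic zone.

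Of the 96 members, 58 are assigned to 1 gene by the platform annotation, 1 to several genes and 37 are unnamed here. No gene holds more than 1 member. Only 8 of the 58 carry a gene symbol, and the tables used here give the others by their locus code without a role, so no role is given for them below. No sequences were among the reference tables used here, and none are printed.

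The rises were moderate in size. Across the 96 members the difference to Col-0 had a median of 1.43 and a range from 1.00 to 3.26 in the meristematic zone, and a median of 1.22 and a range from 1.00 to 2.69 in the elongation zone. In 10 members both rises were at least 1.5, and in 2 both were at least 2, whereas in 32 the smaller rise was under 1.1. The median over members of the mean signal was 194 in Col-0, 191 in upb1-1 and 777 in OX in the meristematic zone, and 151, 166 and 366 in the elongation zone. Because these contrasts chose the members, the sizes are a description and carry no test. The added 16 makes the log2 difference of a dim probe set smaller than the ratio of its signals.

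Both OX replicates lay above both Col-0 replicates for all 96 members in each zone, which the thresholds largely fix. All 96 also had both OX meristematic arrays above both upb1-1 meristematic arrays. The choice of members did not use those 2 upb1-1 arrays, but it picked the OX arrays for being high. In the elongation zone 92 of the 96 had both OX arrays above all 4 other arrays of that zone, the exceptions being AT1G53260 and 3 unnamed probe sets. For 62 members the 4 OX arrays were above all 8 other arrays of either zone, so that for these the lowest OX value exceeded the highest of Col-0 and upb1-1 even across zones. The same counts were not made over all tested probe sets, so they only describe the members. In the meristematic zone 27.5% of all tested probe sets were higher in OX than in upb1-1 at an adjusted p below 0.05 in limma. That share rests on another measure and is no background for the counts above.

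**Figure D2:**
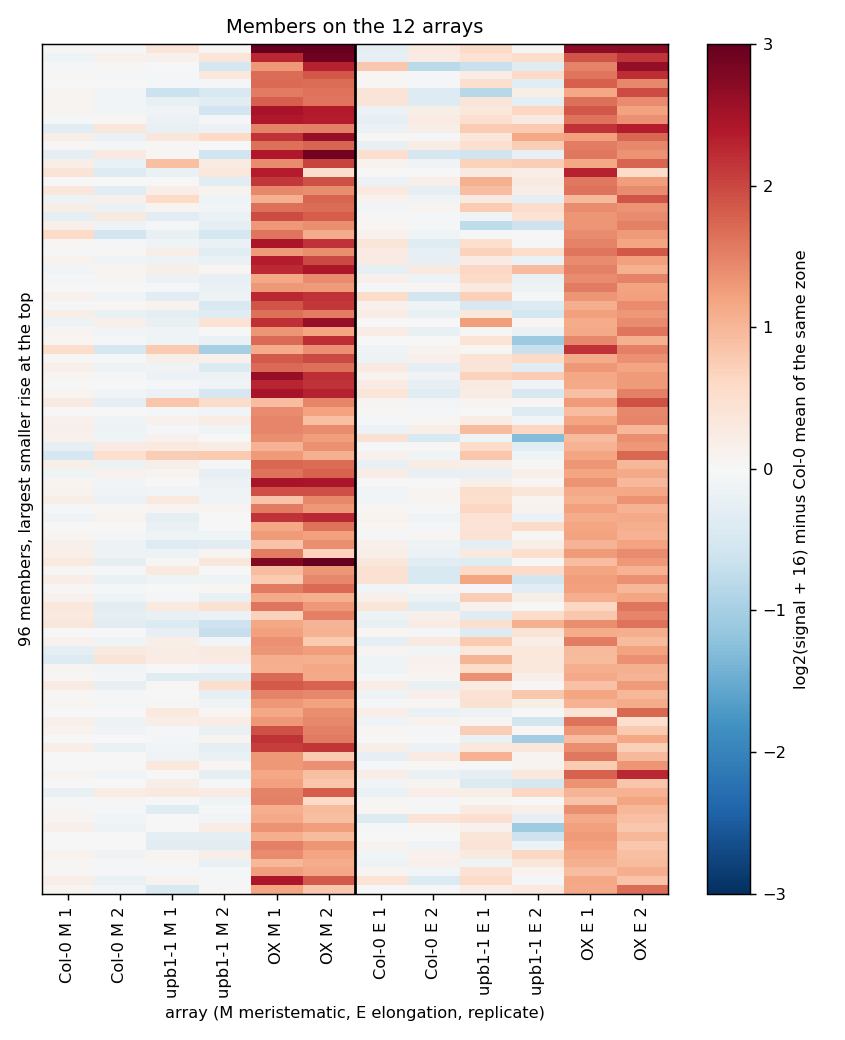
Each row is 1 of the 96 members and each column 1 array, with colour giving log2(signal + 16) minus the mean of the 2 Col-0 arrays of the same zone (M meristematic, E elongation). Rows run from the largest to the smallest of the smaller rise, from 2.69 at the top to 1.00 at the bottom. Both OX columns of each zone are above 0 in every row, as the thresholds largely fix. The upb1-1 meristematic columns took no part in the choice. Their mean per member ran from -0.55 to 0.76, and the 2 arrays of a member lay up to 1.80 apart.

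Among the 8 members with a symbol, IAGLU had the largest smaller rise. IAGLU encodes a glucosyltransferase that joins glucose to the auxin indole-3-acetic acid. Its signals were 179.6 and 157 in Col-0, 155 and 108 in upb1-1 and 1011 and 944 in OX in the meristematic zone. The elongation arrays gave 93.8 and 124 in Col-0, 137 and 176 in upb1-1 and 432 and 270.4 in OX. Every OX value was above every value of the other genotypes in either zone, and the difference to Col-0 was 2.43 (log2) in the meristematic and 1.53 in the elongation zone.

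STZ, also called ZAT10, a zinc finger repressor induced by salt, cold and other stresses, was dim in every group and dimmest outside the OX line. Its OX means of 105 in the meristematic and 95.7 in the elongation zone were below the medians of the tested probe sets there, 153 and 135. Signals in the meristematic zone were 12.9 and 15.5 in Col-0, 16.5 and 6.09 in upb1-1, and 95.5 and 115 in OX. In the elongation zone they were 34.8 and 26.2, 17.2 and 18.6, and 83.1 and 108. The OX values were alike in the 2 zones, and the difference to Col-0 was 2.00 in the meristematic and 1.26 in the elongation zone. Col-0 signals were higher in the elongation pieces, but this difference between zones did not pass the test (0.62, adjusted p = 0.0828 in limma).

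EXPA15, an alpha-expansin, a protein that loosens cell walls, had meristematic signals of 614 and 497 in Col-0, 636 and 647 in upb1-1, and 1377 and 1522 in OX. Among elongation pieces, Col-0 gave 235 and 277, upb1-1 gave 262 and 171, and OX gave 825 and 366. The 2 OX elongation replicates were far apart, and the lower of them was still above the Col-0 and upb1-1 arrays of that zone. The differences to Col-0 were 1.36 and 1.06.

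ASPGB1, an asparaginase, which releases ammonium from asparagine, had meristematic signals of 356 and 269.9 in Col-0, 333 and 298 in upb1-1 and 1736 and 1149.5 in OX. Elongation pieces were dimmer, with 79.0 and 38.6 in Col-0, 91.4 and 54.6 in upb1-1 and 144 and 114 in OX. Its elongation difference of 1.00 was the smallest of all members in that zone, and its meristematic difference was 2.13. GPDHC1, a cytosolic glycerol-3-phosphate dehydrogenase, had a narrower profile, with 128 and 139 in Col-0, 142 and 143 in upb1-1 and 427 and 350.1 in OX meristematic pieces. Its elongation signals were 89.9 and 81.7 in Col-0, 141 and 93.0 in upb1-1 and 224 and 194 in OX, so that OX was above the rest in both zones.

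The remaining 3 genes with a symbol encode plastid functions. FUG1, the initiation factor of plastid translation, gave 182 and 169 in Col-0, 154 and 157 in upb1-1 and 1149 and 869.6 in OX in the meristematic zone. Its elongation values were 209 and 176 in Col-0, 318 and 336 in upb1-1 and 452 and 488 in OX, so that upb1-1 lay between the other genotypes there. The rise was 2.41 in the meristematic and 1.22 in the elongation zone. The plastid-encoded psaB, for a core subunit of photosystem I, gave 483 and 585 in Col-0, 567 and 449 in upb1-1 and 1667 and 1861 in OX meristematic pieces. In the elongation pieces psaB gave 564 and 407, 406 and 538, and 1115 and 1068, with no overlap between OX and the other genotypes in either zone. LHCB4.1, given above and far dimmer than psaB, was lower in OX in both zones. HEMA3, a glutamyl-tRNA reductase of tetrapyrrole synthesis, was the least certain of the 8. Its meristematic signals were 54.6 and 38.2 in Col-0, 40.8 and 40.2 in upb1-1 and 90.2 and 152 in OX, and its elongation signals were 31.5 and 8.94, 62.7 and 7.61, and 65.5 and 73.1. The upb1-1 elongation replicates of HEMA3 differed by 1.74 on the log2 scale, the widest gap of any member in that group.

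**Figure D3:**
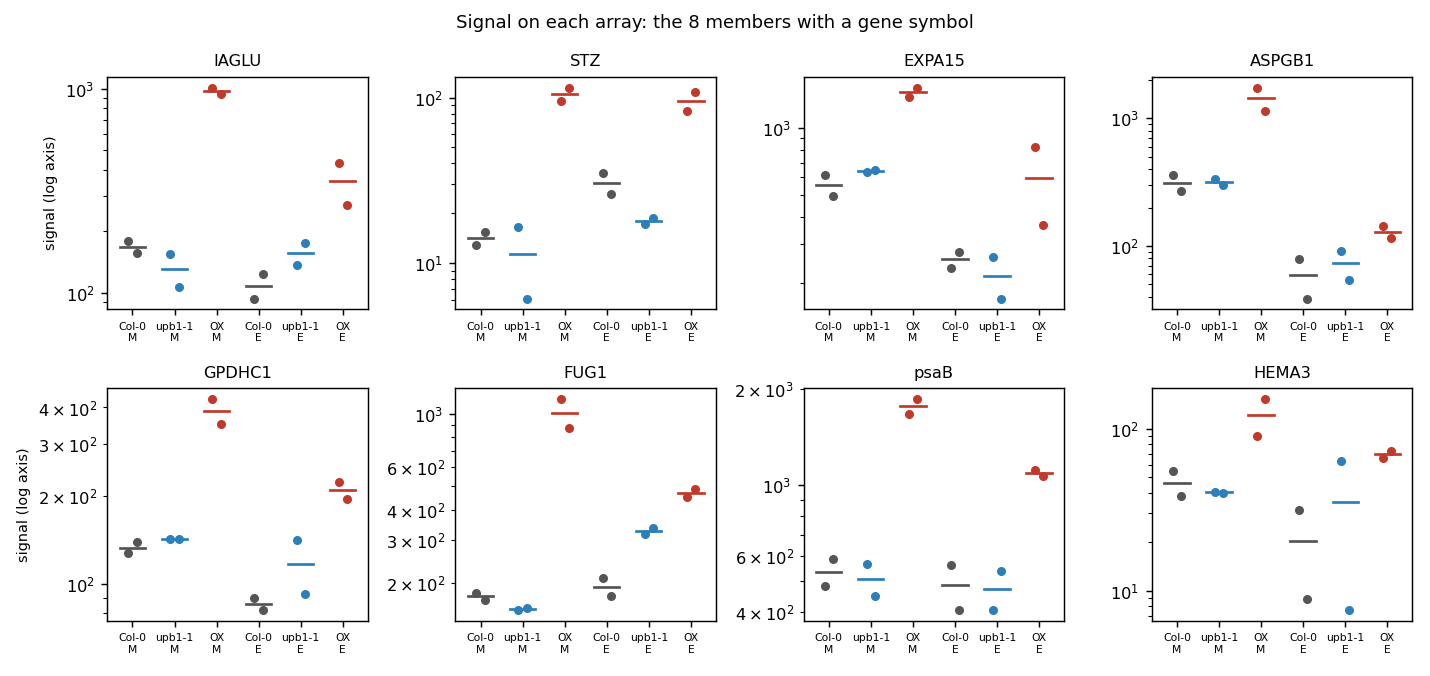
Signal on each array (log axis, 2 points per group, with a line at their mean) for the 8 members with a gene symbol, in the meristematic (M) and the elongation (E) zone of Col-0, upb1-1 and OX. In all 8 panels both OX points lie above the Col-0 points of their zone, and ASPGB1 and EXPA15 are lower in elongation than in meristematic pieces of each genotype.

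Among the members given by locus code, AT4G29780 had the largest smaller-of-both rise. Its signals were 18.9 and 25.3 in Col-0, 25.7 and 32.9 in upb1-1 and 167 and 269.7 in OX in the meristematic zone, and 25.7 and 43.6, 51.4 and 56.6, and 169 and 203 in the elongation zone. OX was above all other arrays, with differences of 2.59 and 2.01 to Col-0. An unnamed probe set exceeded it, with 58.3 and 53.9 in Col-0 against 583 and 786 in OX meristematic pieces and 31.98 and 56.6 against 362 and 370.0 in elongation pieces. Its differences of 3.26 and 2.69 were the highest of all members in each zone.

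AT3G24080 and AT5G27330 were both far brighter in meristematic than in elongation pieces. AT3G24080 gave 669 and 684 in Col-0, 657 and 653 in upb1-1 and 2238 and 2203 in OX in the meristematic zone, and 185 and 178, 261 and 142, and 662 and 523 in the elongation zone. Elongation values of OX thus lay just below the meristematic ones of Col-0. AT5G27330 gave 724 and 643, 585 and 545, and 2401 and 2097 in the meristematic zone, and 208 and 113, 204 and 126, and 521 and 436 in the elongation zone. Their meristematic replicates lay close together, and those of upb1-1 elongation pieces, and of Col-0 elongation pieces for AT5G27330, lay further apart. For both genes the difference to Col-0 was nearly equal in the 2 zones, at 1.69 and 1.62 for AT3G24080 and 1.69 and 1.53 for AT5G27330.

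AT1G50380 gave 534 and 583 in Col-0, 489 and 544 in upb1-1 and 3036 and 2926 in OX meristematic pieces, and 361 and 513, 615 and 527, and 1372 and 1137 in elongation pieces. Its difference to Col-0 was 2.38 in the meristematic and 1.502 in the elongation zone. AT2G04500 ran the other way, with 88.2 and 149, 96.4 and 101, and 352 and 358 in the meristematic zone and 119 and 157, 242 and 248, and 671 and 758 in the elongation zone. Its rise of 2.26 in the elongation zone was above that of 1.502 in the meristematic zone, and upb1-1 lay between Col-0 and OX in the elongation pieces.

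Among members with 1 gene, those with the brightest OX signal over both zones were AT5G26830, AT3G57490, AT5G60520, AT1G26460, AT1G50380 and AT3G15010. AT5G26830 gave 1558 and 1327 in Col-0 against 5583 and 5493 in OX meristematic pieces, and 1035 and 1179 against 2464 and 2488 in elongation pieces. AT5G60520 gave 1223 and 1156 against 3759 and 4029, and 475 and 645 against 1624 and 1522. For AT3G57490 the values were 1706 and 1378 against 3931 and 3662, and 1119 and 1167 against 2704 and 2005. All of these were far above the median of the tested probe sets, which was 158 for Col-0 meristematic and 139 for Col-0 elongation pieces. In the bright genes the added 16 has little weight, and their differences to Col-0 ranged from 1.28 for AT1G26460 to 2.38 for AT1G50380 in the meristematic zone.

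**Figure D4:**
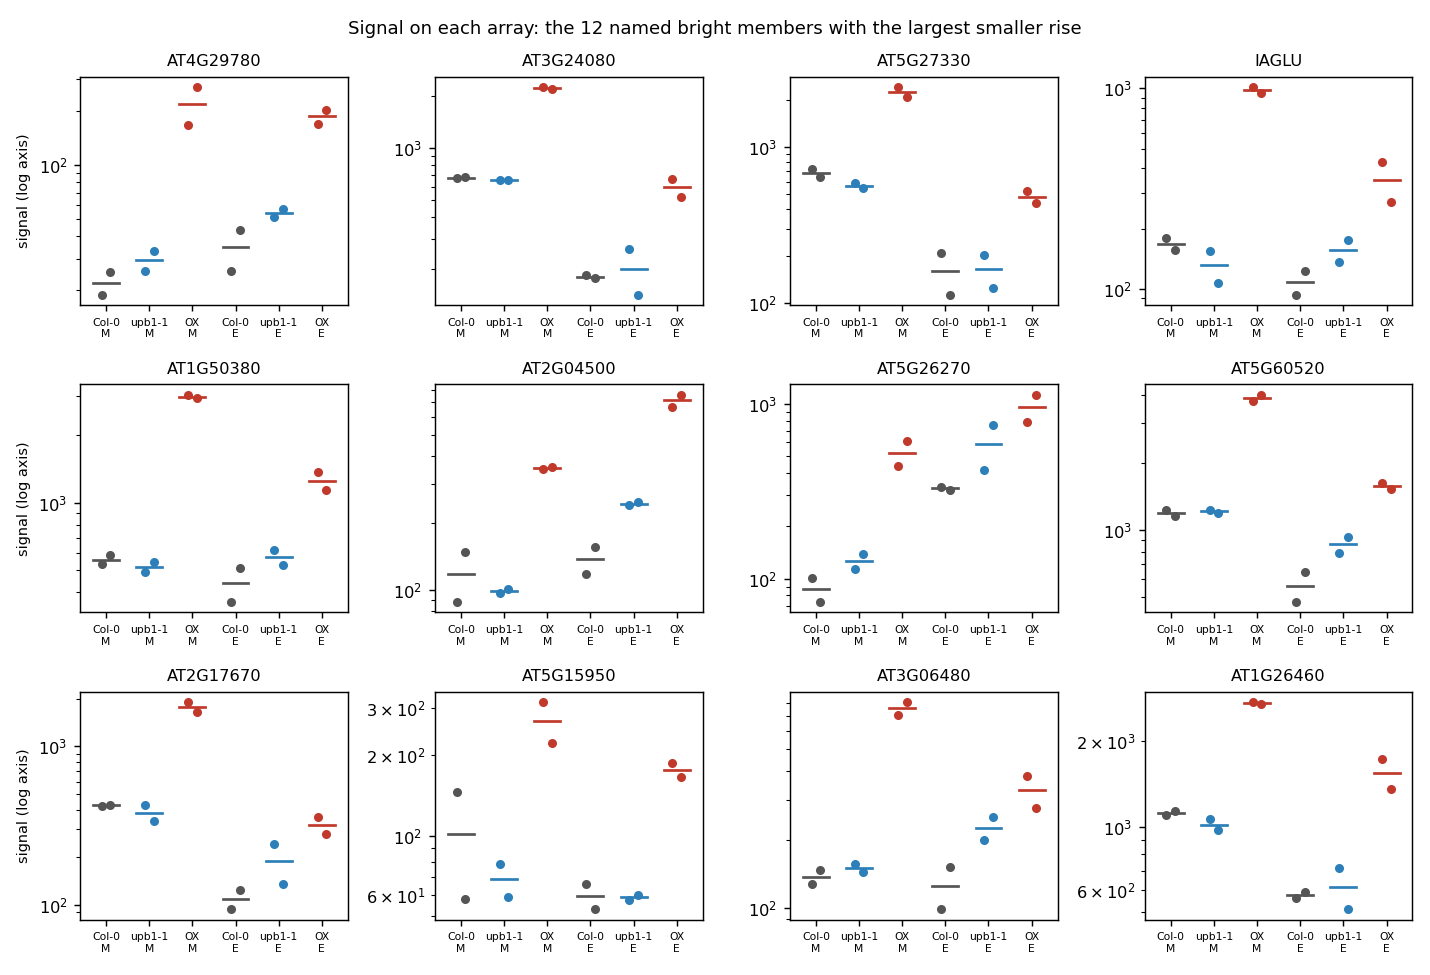
Signal on each array (log axis, 2 points per group, with a line at their mean) for the 12 members with 1 gene and above-median OX signal that had the largest smaller-of-both rise. The panels run from AT4G29780, with a smaller rise of 2.01, to AT1G26460 with 1.28, and show genes that are brighter in the meristematic zone (AT3G24080, AT2G17670) beside genes that are brighter in the elongation zone (AT5G26270).

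The dim end of the set is less certain. Of the 96 members, 94 passed the filter on low signal, and 12 of these passed it only through the OX arrays where they were high, which leaves 82 that passed on the Col-0 and upb1-1 arrays alone. The 2 that did not pass were AT5G48550 and an unnamed probe set. AT5G48550 gave 2.40 and 3.05 in Col-0 and 37.1 and 11.9 in OX meristematic pieces. As a description of the contrasts that chose them, 93 of the 94 had an adjusted p below 0.05 for OX against Col-0 in the meristematic zone, where 26.0% of all tested probe sets were higher, and 90 of the 94 in the elongation zone, where 6.64% were. HEMA3 was the member without a call in the meristematic zone. HEMA3, AT5G40040, AT4G22430 and an unnamed probe set were those without one in the elongation zone.

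Near the thresholds, AT4G27850 and AT5G15980 were the last members inside the meristematic limit, at 1.00 and 1.02, and an unnamed probe set and AT2G41080 fell just outside at 0.995 and 0.994. In the elongation zone ASPGB1 and AT2G25830 were just inside at 1.00 and 1.01, and 2 unnamed probe sets just outside at 0.999 and 0.998. For the band on upb1-1, AT4G38710 and AT3G06480 were inside at 0.79 and 0.78, and unnamed probe sets were outside at 0.83 and 0.93. On its lower side unnamed probe sets were inside at -0.71 and -0.69 and outside at -1.04 and -1.35.

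Some genes have a further probe set on the array that is no member. AT3G56590 had a member probe set with differences of 1.12 and 1.12 to Col-0, and another probe set with -0.36 in the meristematic and 0.11 in the elongation zone. AT1G79150 had a member probe set with 2.39 and 1.22, and another with 0.57 and 0.27. Probe sets of these 2 genes therefore disagreed, in sign for AT3G56590 in the meristematic zone and in size for AT1G79150. No further probe set is annotated to any other member's gene alone, so this check covers few members.

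The size of the rise differed between zones for part of the set. It was larger in the meristematic zone in 66 members and larger in the elongation zone in 30, and in 61 the 2 rises were within 0.5 of each other. These counts were not made over all tested probe sets, so they only describe the members. Of all tested probe sets, 26.0% were higher and 23.5% lower in OX than in Col-0 meristematic pieces at an adjusted p below 0.05 in limma. In elongation pieces these shares were 6.64% and 7.46%, so calls were more frequent in the meristematic zone over all probe sets too. The median difference of all tested probe sets was 0.10 in the meristematic and 0.02 in the elongation zone, and the part of the control ratio given above, higher on these OX meristematic than on the Col-0 meristematic arrays, was not tested. In 11 members the meristematic rise was the larger by at least 1. AT3G56360 was the widest of the named ones, with 181 and 116 in Col-0, 149 and 188 in upb1-1 and 1093 and 1347 in OX meristematic pieces, against 944 and 586, 572 and 743, and 1419.8 and 1867 in elongation pieces. The rises of AT3G56360 were 2.93 and 1.11, and its OX meristematic values lay above the Col-0 elongation values. FUG1, AT1G79150 and AT1G53260 followed, with meristematic rises of 2.41, 2.39 and 2.40 against 1.22, 1.22 and 1.26.

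Only 3 members had an elongation rise larger by at least 0.5. AT5G48175 was widest among named genes, with 37.1 and 30.8 in Col-0, 33.8 and 25.4 in upb1-1 and 96.03 and 77.3 in OX meristematic pieces and 41.9 and 27.2, 25.2 and 46.5, and 154 and 225 in elongation pieces. Its rises were 1.04 and 2.02. AT2G04500, described above, and an unnamed probe set were the other 2. AT5G61820 (1.09 and 1.51) and AT4G27850 (1.00 and 1.41) were the next named genes and lay below that difference.

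The upb1-1 meristematic arrays give the level of each member in the mutant background that the OX line shares. In upb1-1 against Col-0 no tested member passed limma at an adjusted p below 0.05, and 0 of 94 had an unadjusted p below 0.05, against 264 of all 15834 tested probe sets; 0.0379% of all tested probe sets passed the adjusted test, so a count of 0 is near the background. Over the 82 members that passed the filter without the OX arrays the counts were also 0 and 0, with a median of -0.08. The median difference was -0.07 over the tested members and 0.00 over all tested probe sets, with a range over members from -0.55 to 0.76, and 89 of the 96 members lay within 0.4 of Col-0. This comparison shares the Col-0 meristematic arrays with the choice of members, which favoured low Col-0 values there. In the elongation zone, where the band limits the difference, 8 members were higher (9.36% of all tested probe sets were) and 1 lower (9.45%), with FUG1, AT2G04500, AT5G60520, AT3G06480 and AT5G61820 among the 8. Called or not, 70 tested members lay above Col-0 there and 24 below. Their median was 0.22, against -0.02 over all tested probe sets. The Col-0 elongation arrays also served to choose the members. A member that misses the test is not thereby shown to be equal in the 2 genotypes.

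In upb1-1 against Col-0 meristematic pieces IAGLU gave -0.34, STZ -0.17, EXPA15 0.21, FUG1 -0.16 and AT4G29780 0.25, and none of these passed. OX against upb1-1 in the meristematic zone, the comparison of the line with its own background, gave a median of 1.52 over the tested members against 0.11 over all tested probe sets. Of the 94 tested members 90 were higher at an adjusted p below 0.05 in limma, where 27.5% of all tested probe sets were. Of the 82 members that passed the filter without the OX arrays 80 were. The OX arrays of this comparison chose the members, so both counts only describe them. IAGLU was higher than in upb1-1 by 2.77, FUG1 by 2.57, STZ by 2.17 and ASPGB1 by 2.11.

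The difference between zones within a genotype was no criterion of the set. In upb1-1, whose meristematic arrays the choice did not use and whose elongation arrays it used only through the band, 44 of the 94 tested members changed between zones at an adjusted p below 0.05 in limma, beside 52.6% of all tested probe sets. In elongation pieces 28 were lower and 16 higher. These shares of 29.8% and 17.0% stood beside 28.5% and 24.1% of all tested probe sets, so the members' zone pattern in upb1-1 was near the background. After centring each array on its median the split was 24 lower and 21 higher. The median zone difference was -0.09 over the members and -0.04 over all tested probe sets.

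The members lower in upb1-1 elongation pieces were led by AT3G12860, with 452 and 451 in meristematic pieces against 94.7 and 58.2 in elongation pieces, a difference of -2.37 (SE 0.21, adjusted p = 1.19e-06 in limma). AT3G02320 fell by 2.02, AT5G59240 by 2.00, ASPGB1 by 1.93 and AT5G27330 by 1.72, all with adjusted p of 6.16e-05 or smaller. In each of these the 2 meristematic arrays were above the 2 elongation arrays in all 3 genotypes. On the OX arrays AT3G12860 had 1670.4 and 1469 in meristematic pieces against 177 and 129 in elongation pieces, so the elongation level of OX remained below the Col-0 meristematic level of 572 and 585.

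The members higher in upb1-1 elongation pieces were led by AT5G61820, with 342 and 292 in meristematic pieces against 1154 and 1739 in elongation pieces, a difference of 2.11 (SE 0.25, adjusted p = 9.19e-06 in limma). AT5G26270 rose by 2.03 (adjusted p = 2.31e-05), AT3G56360 by 1.86 (3.33e-05), AT2G04500 by 1.19 (0.000348) and AT1G73650 by 1.01 (0.00048). In Col-0 the same comparison gave 0.82 for AT5G61820, 1.75 for AT5G26270 and 2.24 for AT3G56360, which passed, and 0.22 for AT2G04500 and 0.26 for AT1G73650, which did not. No member passed the test of the difference between the zone effects of upb1-1 and Col-0, which 2.27% of all tested probe sets did. That difference contains the difference of upb1-1 to Col-0 in the elongation zone, which the band limits. The choice of members therefore partly fixes this count, and no conclusion is drawn from it.

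In Col-0 40 members changed between zones (40.3% of all tested probe sets did) and in OX 59 (53.5%). Col-0 had 31 lower and 9 higher in elongation pieces, or 33.0% and 9.57% of the tested members, beside 22.8% and 17.5% of all tested probe sets. In OX 50 were lower and 9 higher, or 53.2% and 9.57%, beside 29.6% and 23.9%. The 9 higher in Col-0 became 4 without Col-0 meristematic replicate 1, and 5 without meristematic replicate 2 or elongation replicate 2. The 9 higher in OX became 3 without OX elongation replicate 2, and 6 without either meristematic replicate. Both groups of each comparison also served to choose the members, so these shares are not independent of that choice, and the OX meristematic arrays had the control ratio given above. The median zone difference of the tested members was -0.37 in Col-0 and -0.70 in OX, against -0.06 and -0.11 over all tested probe sets.

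Taken by member, 25 of the 94 were lower in the elongation zone in all 3 genotypes, or 26.6% beside 12.7% of all tested probe sets. They include AT3G24080, AT5G27330, AT3G12860, AT5G59240, ASPGB1, EXPA15, AT2G17670 and AT1G79150. Only 4 were higher in all 3, or 4.26% beside 8.88%, among them AT5G26270, AT5G61820 and AT4G27280. Another 18 were lower in OX with no call in Col-0 or upb1-1, or 19.1% beside 8.88%, and IAGLU, psaB, AT1G50380, AT5G26830 and AT3G15010 are among these; the difference between genotypes was not tested for them. Another 23 had no zone call in any genotype, or 24.5% beside 23.5%, and include STZ, HEMA3, AT4G29780 and AT5G15950. The other 24, among them FUG1, GPDHC1, AT3G56360 and AT2G04500, had other combinations of calls. The shares in these classes are not independent of the choice of members. The band holds upb1-1 near Col-0 in elongation pieces, and the members were chosen for being high on the OX arrays of both zones.

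**Figure D5:**
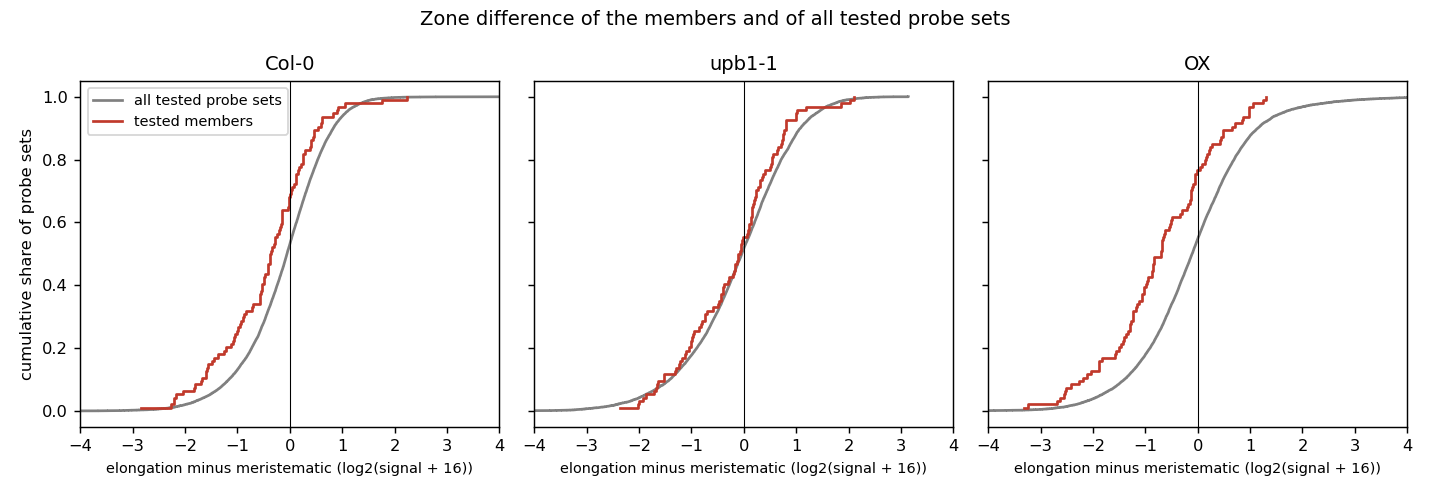
Cumulative share of probe sets (vertical axis) by their elongation minus meristematic difference on the log2(signal + 16) scale (horizontal axis), for the 94 tested members in red and all 15834 tested probe sets in grey, in Col-0, upb1-1 and OX. The curves run close together in upb1-1, with medians of -0.09 and -0.04, and lie apart in OX, with medians of -0.70 and -0.11.

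The members were set beside 37 gene lists, of which 5 hold a member, and these 5 hold only IAGLU, STZ and EXPA15. None of the 9 lists of cell type markers holds one. Few genes of most lists had a tested probe set with 1 annotated gene. The list of auxin response and metabolism had 6 tested genes, of which 4 (3 after quantile normalization) were higher in OX than in Col-0 in the meristematic zone and none lower, and 2 were higher in the elongation zone. Of all tested probe sets 26.0% were higher and 23.5% lower in the meristematic zone, and 6.64% higher in the elongation zone. IAGLU was highest in both. GH3.1 and WES1, which conjugate auxin to amino acids, rose by 1.38 (adjusted p = 0.0142 in limma) and by 0.84 (0.0123) in the meristematic zone, and gave 0.61 and -0.14 in the elongation zone without passing. UGT74D1, a further glycosyltransferase, rose by 0.42 (0.0488) and by 0.70 (0.0137). The list's medians were 0.63 and 0.37, against 0.10 and 0.02 over all tested probe sets. IAGLU, chosen for its rises, is 1 of the higher calls in each zone and enters both medians, so these values partly follow from the choice.

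UDP-glycosyltransferases attach sugars to hormones and other small molecules. Of the 35 tested, 13 were higher and 6 lower in the meristematic zone, where 26.0% and 23.5% of all tested probe sets were. In elongation pieces 5 were higher and none lower, beside 6.64% and 7.46%. The list's medians were 0.20 and 0.16, against 0.10 and 0.02 over all tested probe sets. IAGLU is the member among them, so 1 higher call in each zone follows from the choice. UGT73B4 was also higher in both zones, at 0.80 (adjusted p = 0.0062 in limma) and 0.99 (0.0076), short of the threshold of 1. UGT87A2 had a meristematic rise of 2.89 but an elongation difference of 0.22 without a call.

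EXPA15, a member chosen for its rises, was the only higher call in either zone in the list of expansins and xyloglucan enzymes. Of the 19 tested, 11 were lower (23.5% of all tested probe sets were) and 1 higher in the meristematic zone, and 3 were lower (7.46%) and 1 higher in the elongation zone, EXPA15 being the higher one in both. In elongation pieces 10 of the 19 had a difference above 0, called or not. The list's medians were -1.16 in the meristematic zone and, for elongation pieces, 0.07, which was -0.03 after quantile normalization. EXPB1 fell by 4.70 and by 1.19, and EXPA9 fell by 1.42 in the meristematic zone and gave 0.45 in the elongation zone without passing. EXPA7 and EXPA18, the root hair expansins of the marker list, are among the 3 that were lower in both zones, together with EXPB1. Of the 2 tested genes of the list of jasmonate and wound response, STZ was higher in both zones, and PDF1.2 passed in neither (-0.26 and 0.79). STZ was also the 1 tested gene of the list of cold, touch and ZAT/CBF response.

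By position in the gene table, 2 pairs of named members lie near each other on a chromosome. How often genes picked without regard to position lie this close was not counted. AT5G15950 and AT5G15980 have 2 protein-coding genes between them, and AT5G61820 and AT5G61890 have 5. AT5G15950 gave 145 and 57.9 in Col-0 and 315 and 221 in OX meristematic pieces, with replicates of Col-0 further apart than in any other member there. AT5G15980 gave 869 and 871 in Col-0 and 1872 and 1686 in OX. In the first pair AT5G15980 was lower in the elongation zone in all 3 genotypes. AT5G15950 had no zone call, with differences of -0.17 in upb1-1, -0.54 in Col-0 and -0.55 in OX. In the second pair AT5G61820 was higher in the elongation zone in all 3 genotypes and AT5G61890 had no zone call. Whether the genes of a pair differ was not tested.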

How the data were processed

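The authors deposited linear MAS5 signal intensities per probe set, per the submitters' processing notes; no version is named. Every array had been scaled to about the same trimmed mean (2% trimmed at each end, between 250.025 and 250.03). No detection calls were used. The table held 22810 probe sets, of which 64 controls were left out.

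Signals were taken to log2 after adding 16. The filter kept 15834 probe sets whose signal was not under the 40th percentile of an array for 2 or more of the 12 arrays. They were fitted with limma 3.58.1 in R 4.3.3 (6 group means, eBayes with trend, two-sided), all arrays sharing 1 estimate of the spread, with Benjamini-Hochberg adjustment over the tested probe sets of each comparison. The fit was tested on simulated data. With 2 arrays a group, their number limits the precision. Replicates correlated across probe sets with r between 0.973 and 0.988.

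Members, gene lists and tests were chosen with earlier results of these data known. Lists were matched by symbol or synonym to TAIR10.1 gene names, the brightest probe set standing for a gene. Named genes are members with 1 gene: the 12 largest smaller rises among bright ones, the 5 largest zone differences each way in upb1-1, list members, the 6 brightest, the edges of the thresholds, and the widest differences between rises. Genes with a symbol, those with a further or neighbouring gene entry, uncalled members and list genes outside the set were named after their values were seen. A search of promoters for 15 motifs was not run.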

Additional observations from a re-analysis of the deposited data

How the results depend on the processing

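The set of 96 members depends on the amount added before log2 and on single arrays. With 1 added, 471 probe sets met the thresholds and 83 of the 96 were among them; with both rises at least 2 there were 2. With 1 array left out the number lay between 84 and 147, the highest without Col-0 elongation replicate 1, where 78 of the 96 remained. It was 70 with 32 added, 119 (93 of the 96 among them) after median centring and 86 after quantile normalization. The other counts of members changed, taken over both directions, stayed within 1.5 times their value, and the count of 0 for upb1-1 against Col-0 stayed 0, under every alternative run. With 1 array left out, the lone array of its group being taken to vary like the other groups, they were 33 to 46 for the zones in upb1-1, 28 to 36 in Col-0, 48 to 57 in OX, 80 to 86 for OX against upb1-1, and 83 to 88 and 63 to 71 for OX against Col-0 in the meristematic and the elongation zone. Taken by direction, the 9 members higher in elongation pieces were 4 to 7 in Col-0 and 3 to 9 in OX with 1 array left out; with 1 added or with no filter they were 6 in OX. Counting the filter on the 8 Col-0 and upb1-1 arrays alone, an alternative chosen after seeing the data, gave 43 for the zones in upb1-1. The 10 named zone differences in upb1-1 kept their direction and their call in all 130 refits. Same-numbered replicates did not deviate together (correlations between -0.15 and 0.28 over 15 pairs of groups, 2 of them above 0.1), and the labels share only numbers. With the replicate block 47 members changed between zones in upb1-1 (44 without it), 41 in Col-0 (40), 61 in OX (59), 91 for OX against upb1-1 (90), and 94 and 90 for OX against Col-0 (93 and 90). The counts for OX against Col-0 and for OX against upb1-1 rest on the OX arrays that chose the members. They describe the members under every setting, and their steadiness is no support for the set. Members near the floor of the arrays are the least certain.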
